A study of Mus musculus with 16 samples.

Results

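Mouse liver that had lost the mitochondrial carrier Slc25a47 in hepatocytes and was fed was set against control liver after an overnight fast, by RNA sequencing. The comparison takes 4 libraries of each, 8 of the 16 libraries of the study. The fed KO group had the genotype Slc25a47hep-/- and was in the fed state on chow. The fasted WT group had the genotype Slc25a47hep+/+ and was sampled after overnight fasting. Another group of 4, Slc25a47hep+/+ on chow (fed WT), served here only as a common reference level. All 12 samples came from males 9 weeks old of the C57BL/6 strain with the conditional allele Slc25a47tm1c(EUCOMM)Hmgu, so the controls carry that allele too. Neither the driver of the hepatocyte deletion nor the hours of the fast are stated in the sources used here. The members were chosen by their sample labels alone, and every gene with enough reads entered the comparison.

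A fast moves the liver from storing fuel to making it. Falling insulin and rising glucagon and glucocorticoid shut down fatty acid and cholesterol synthesis, while fatty acids arriving from fat tissue activate the nuclear receptor PPAR-alpha, whose targets burn them and turn them into ketone bodies. Mitochondrial faults can raise another programme, the integrated stress response, in which the transcription factor ATF4 turns on amino acid synthesis genes and the hormones FGF21 and GDF15. Fgf21 is a target of both PPAR-alpha and ATF4. The comparison asks, gene by gene, where carrier loss without a fast stands near a normal fast and where it does not.

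The 12 libraries held 19.6 to 27.3 M reads (M, 1000000) assigned to genes, and 13905 of the 53714 genes counted had enough reads for a test. Levels are TMM-scaled CPM, counts per 1000000 gene reads, in order of replicate number. The labels do not say what libraries of 1 number share between groups. A difference is the log2 of fed KO over fasted WT, so that positive values mean a higher level in fed KO, and it is given with its standard error and an adjusted p from edgeR. The labels number the samples but do not name the animals, so p-values measure the spread between these samples, which may in part be technical. Libraries of fed KO had TMM factors of 1.05 to 1.14 and those of fasted WT 0.903 to 0.938. Scaling by library totals alone therefore moved the median of all genes from 0.017 to 0.28, and small differences are relative to the TMM scaling. Transcripts of the exocrine pancreas, 26 marker genes summed, stood at 8.17, 2183, 49.9 and 609 CPM in the fasted WT libraries and at 8.35 to 27.1 CPM in fed KO. Fasted WT replicates 2 and 4 stood apart. All 18 tested markers of that list were called lower in fed KO by edgeR. Without those 2 libraries 0 were called, and the number called was 8 without fed KO replicate 1, 9 without fed KO replicate 2 or 4, and 6 without fasted WT replicate 2. Each list below was therefore also counted without fasted WT replicates 2 and 4, called here the pancreas-marked libraries. Hepatocyte markers were abundant in every library, with a sum over 30 genes of 151000 to 187000 CPM in fed KO and 168000 to 206000 CPM in fasted WT.

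Slc25a47 itself (ENSMUSG00000048856, chromosome 12 of GRCm38, 108836046 to 108856815, forward strand) checked the labels. It stood at 81.8, 123, 153 and 146 CPM in the 4 fed KO libraries and at 914, 1139, 889.5 and 855 CPM in the 4 fasted WT libraries. No fed KO library reached any fasted WT library, and the difference was -2.91 ± 0.26 (SE; adjusted p = 6.13e-07). The fed WT libraries lay between the groups, at 461, 621, 628 and 836 CPM. Counts per gene cannot show whether the reads left in KO liver come from a shortened transcript or from other cells.

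Fed KO and fasted WT livers differed widely. Of the genes tested, 6797 passed the test, which is 48.9% of them: 3442 were higher (24.8%) and 3355 lower (24.1%) in fed KO. At least 2-fold differences that passed were 878 higher (6.31%) and 825 lower (5.93%). Scaled by library totals, 6513 were higher and 1665 lower. The counts of called list members below are to be read beside the 48.9% called, 24.8% higher and 24.1% lower of all genes. Against the common reference, 14.0% of genes were higher and 16.9% lower in fed KO, and 16.2% were higher and 18.3% lower in fasted WT. Those reference comparisons share the fed WT libraries, so their values are only set side by side.

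**Figure D1:**
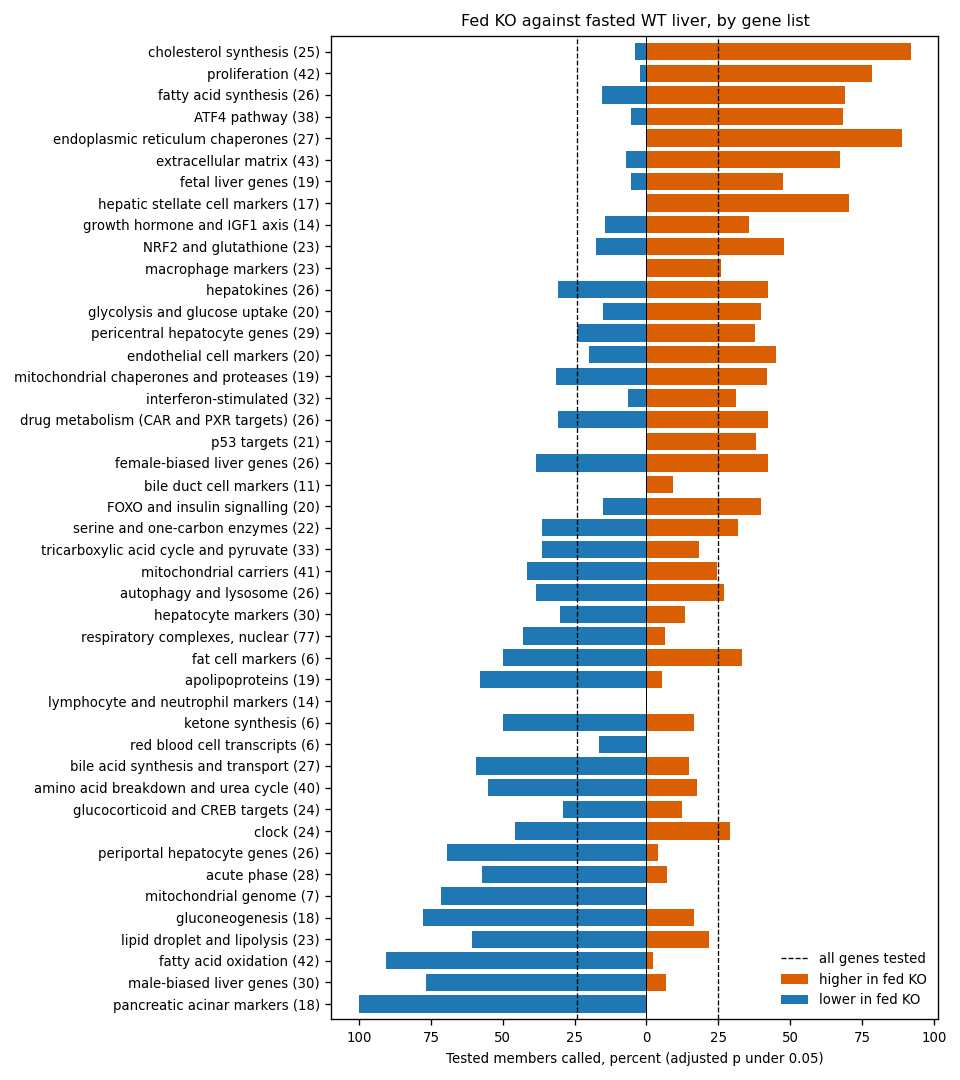
Each bar gives the share of a list's tested members that were called higher (right, orange) or lower (left, blue) in fed KO than in fasted WT liver, in percent, with the number tested after the name; lists are ordered by their median difference, and dashed lines mark the shares of all genes tested. Cholesterol synthesis, proliferation and fatty acid synthesis lie at the higher end, and fatty acid oxidation and acinar markers of the pancreas at the lower end.

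Nearly all genes that burn fatty acids were lower in fed KO than in fasted WT. Of 42 tested, 38 were lower and 1 higher in fed KO than in fasted WT, beside 24.1% and 24.8% of all genes. The median difference of the list was -1.10, beside 0.017 for all genes tested. Cpt1a, the carnitine palmitoyltransferase that admits long-chain fatty acids to mitochondria, stood at 409, 346, 409 and 398 CPM in fed KO and 1057, 1164, 1144 and 978 CPM in fasted WT. Fed WT livers held 404, 453, 459 and 477 CPM, so the fed KO libraries overlapped the fed reference and stood clear of the fast. Its difference was -1.47 ± 0.083 (adjusted p = 2.03e-10). Ppara, the receptor gene at the head of this programme, was 50.7, 53.9, 56.7 and 27.8 CPM in fed KO and 122, 132, 131 and 142 CPM in fasted WT. It was lower in fed KO than in fed WT as well, at -0.89 ± 0.17 (adjusted p = 0.00142), and its direct difference was -1.48 ± 0.18.

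Some targets of the receptor were above fed WT in fed KO liver and yet well below the fast. Against fed WT, 18 of the 42 oxidation genes were higher and 7 lower in fed KO, beside 14.0% and 16.9% of all genes. In the fast 39 of them were higher and 0 lower, beside 16.2% and 18.3% of all genes. Ehhadh, a bifunctional enzyme of peroxisomal oxidation, was 311, 328, 482 and 637 CPM in fed KO, 3831, 5380.1, 5892 and 5968 CPM in fasted WT and 228, 194, 252 and 279 CPM in fed WT. The omega-hydroxylase gene Cyp4a10 was 417, 749, 708 and 831 CPM in fed KO, 7467, 7913, 8201 and 8214 CPM in fasted WT and 105, 31.7, 179 and 133 CPM in fed WT. Both were called above fed WT, at 0.88 ± 0.20 and 2.59 ± 0.39, while the fast stood at 4.47 ± 0.23 and 6.15 ± 0.46. Their direct differences were -3.58 ± 0.22 and -3.55 ± 0.40. Cyp4a10 has near-identical neighbours, and reads that align to several places are not in its count. Vnn1, the pantetheinase gene, followed the same order with means of 46.9 ± 6.73 (SD, n = 4), 216 ± 47.2 and 26.9 ± 4.98 CPM. Slc27a1, a fatty acid transport protein, did not: it was 4.89, 4.94, 4.11 and 4.17 CPM in fed KO, near the 3.86, 3.24, 5.33 and 5.15 CPM of fed WT, and 37, 37.4, 33.6 and 35.6 CPM in fasted WT, a difference of -2.98 ± 0.12.

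The exceptions in the list, named after their values were seen, were few. The member called higher was Cd36, which encodes a fatty acid uptake receptor, at 1.64 ± 0.13 (adjusted p = 4.83e-08). Acot2, a mitochondrial acyl-CoA thioesterase, and Abcd2, a peroxisomal transporter of acyl-CoA, had direct differences of -0.28 ± 0.32 and 0.04 ± 0.27 that did not pass (adjusted p = 0.503 and 0.914). The other uncalled member, the electron transfer flavoprotein gene Etfa, had -0.12 ± 0.076 and passed without fed KO replicate 4, at -0.19 (adjusted p = 0.034). Of 6 genes of ketone synthesis and export, 3 were lower and 1 higher in fed KO, and 2 and 2 with library totals. Acat1, a thiolase of ketone synthesis, gave -0.48 ± 0.10, a call that was lost with library totals (adjusted p = 0.059). Slc16a6, a ketone body exporter, went the other way at 1.57 ± 0.33.

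Promoters of these genes were searched for the direct repeat that PPAR-alpha binds with its partner RXR, known as DR1, by exact match on both strands of 250 bases before to 50 after the start in the RefSeq table of GRCm38.p6. The genes searched were those the naming rule picks from the oxidation list. The 8 of 11 with an entry held 0 exact matches. Among all 32851 promoters, 0.0396% held one. This says only that these letters are rare in windows of this length.

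**Figure D2:**
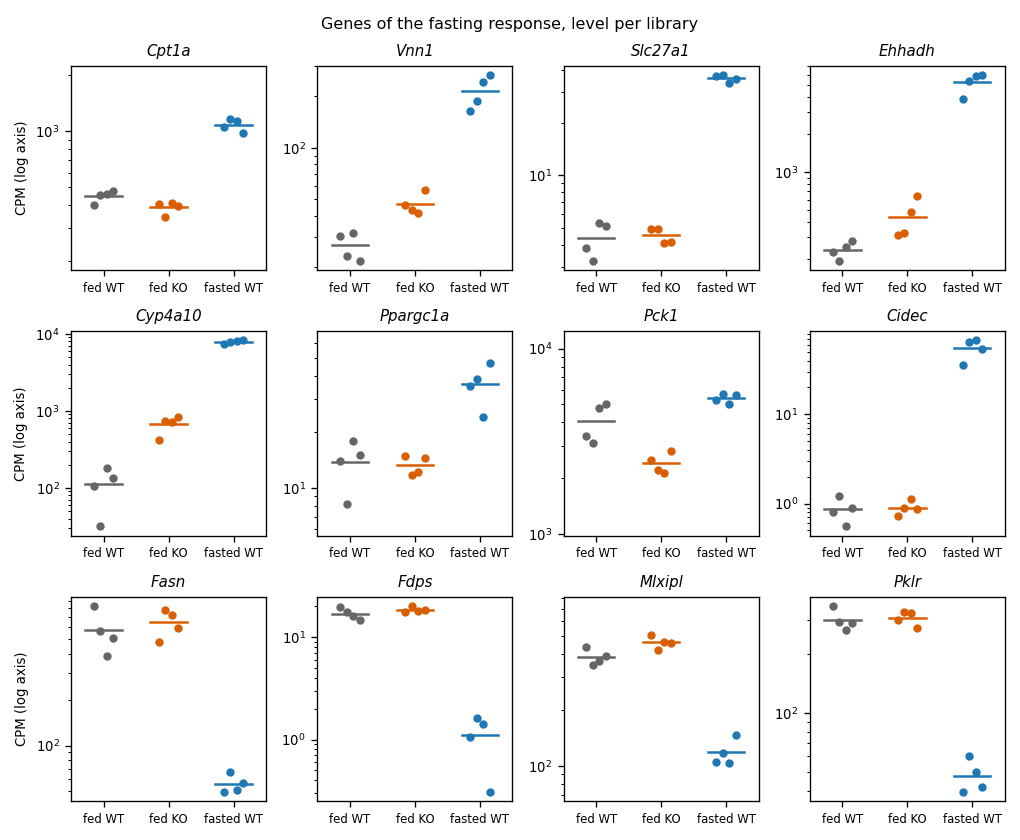
Levels in CPM on a log axis for 12 genes of the fasting response, 1 point per library and a bar at the mean of 4, in fed WT (grey), fed KO (orange) and fasted WT (blue) livers. For the oxidation genes Cpt1a and Slc27a1 and for the synthesis genes Fasn, Fdps and Pklr the fed KO points lie near the fed WT points and apart from fasted WT.

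Most genes of glucose production were lower in fed KO, with 3 exceptions. Of 18 tested, 14 were lower and 3 higher in fed KO (94.4% called, beside 48.9% of all genes). Pck1, the cytosolic carboxykinase that commits carbon to glucose, was 2519.6, 2208, 2139 and 2799 CPM in fed KO and 5259, 5704, 5008 and 5594 CPM in fasted WT, without overlap, a difference of -1.16 ± 0.13 (adjusted p = 1.38e-06). Pck1 was also lower in fed KO than in fed WT (-0.75 ± 0.13), while the fast lay above fed WT (0.40 ± 0.13). G6pc, the glucose-6-phosphatase that releases glucose, stood the other way, at 1177, 1256, 1274 and 1687 CPM in fed KO and 925, 1035, 1070.5 and 619 CPM in fasted WT. Its difference of 0.56 ± 0.19 (adjusted p = 0.0225) did not pass without fed KO replicate 4 (adjusted p = 0.0786), without fasted WT replicate 4 (adjusted p = 0.0569), without both pancreas-marked libraries (adjusted p = 0.1) and without the filter on low counts (adjusted p = 0.0637). The other called rises were Fbp1, a bisphosphatase of the pathway, at 0.59 ± 0.10 and the mitochondrial carboxykinase gene Pck2 at 1.10 ± 0.17, both named after their values were seen. Pck2 also stands in the ATF4 list. Ppargc1a, the coactivator that drives the programme in the fast, was 14.8, 11.8, 12.1 and 14.5 CPM in fed KO, 35.4, 38.6, 24 and 46.9 CPM in fasted WT and 13.9, 8.24, 17.9 and 15 CPM in fed WT. Its direct difference was -1.45 ± 0.28, with fed KO inside the fed WT range. Pcx, which makes oxaloacetate from pyruvate, gave -0.93 ± 0.081, the glycerol kinase gene Gk -1.30 ± 0.13, and Sdsl, a serine dehydratase-like enzyme, -2.20 ± 0.15.

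Genes under insulin and FOXO control were called in both directions. Of 20, 8 were higher and 3 lower in fed KO, and 10 and 2 with library totals, a called share of 55.0% beside 48.9% of all genes. Without the pancreas-marked libraries the counts were 5 and 4. Igfbp1, a secreted binding protein that FOXO1 raises when insulin is low, was 601, 659, 883 and 812 CPM in fed KO and 271, 448, 499 and 277 CPM in fasted WT. Fed WT libraries spread over 490.3, 349.8, 230.4 and 370.1 CPM and overlapped the fasted ones. The difference was 0.98 ± 0.25 (adjusted p = 0.00548). Pdk4, the kinase that closes pyruvate dehydrogenase in the fast, was 49.7, 58.6, 83.3 and 168 CPM in fed KO and 21.8, 34.8, 44.8 and 37.4 CPM in fasted WT. The fed KO libraries were widely spread, and the difference of 1.37 ± 0.44 (adjusted p = 0.0213) did not pass without fed KO replicate 4 (adjusted p = 0.0817), without fasted WT replicate 1 (adjusted p = 0.0603) and without the pancreas-marked libraries (adjusted p = 0.0874). Irs2, an insulin receptor substrate, gave 1.0 ± 0.33 (adjusted p = 0.0237), which did not pass without fed KO replicate 3 (0.058 as adjusted p), fasted WT replicate 1 (0.0627), fasted WT replicate 4 (0.0625) or both pancreas-marked libraries (0.146). The translational repressor gene Eif4ebp2 and the adaptor gene Grb10 were higher, at 0.67 ± 0.08 and 0.84 ± 0.17. The insulin receptor gene Insr was lower at -0.40 ± 0.077, a call that was lost with library totals (adjusted p = 0.141).

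Among targets of the glucocorticoid receptor and CREB, 7 of 24 were lower and 3 higher in fed KO, 6 and 5 with library totals, a called share of 41.7%. These counts moved with single libraries. Without the pancreas-marked libraries they were 4 and 4, the number higher was 1 without fed KO replicate 4, and it was 5 without fasted WT replicate 2. Tat, the tyrosine aminotransferase long used as a readout of glucocorticoid, gave -0.93 ± 0.16, and the transcription factor gene Cebpd -1.44 ± 0.34. Crem, a CREB family gene, was higher at 0.69 ± 0.14. Angptl4, an inhibitor of lipoprotein lipase, was 214, 187, 226 and 272 CPM in fed KO, 157, 269, 226 and 328 CPM in fasted WT and 174, 259, 261 and 299.5 CPM in fed WT, so that all 3 groups overlapped. Its difference was -0.13 ± 0.20, with a 95% interval from -0.56 to 0.31.

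Genes of fatty acid synthesis were mostly higher in fed KO than in the fast. Of 26 genes, 18 were higher and 4 lower in fed KO than in fasted WT, with a median of 1.24. Fasn, the fatty acid synthase, was 483, 781, 726 and 596 CPM in fed KO and 49.7, 66.8, 50.6 and 56.6 CPM in fasted WT. With fed WT at 829.5, 563, 391 and 509 CPM, its fed KO level overlapped the fed reference, and the direct difference was 3.53 ± 0.21 (adjusted p = 4.63e-09). Acaca, the carboxylase that starts synthesis, had a mean of 130.0 ± 20.5 CPM in fed KO and 30.8 ± 2.66 CPM in fasted WT (SD, n = 4 each), a difference of 2.08 ± 0.14, and it was also called above fed WT at 0.69 ± 0.13. Srebf1, which encodes the insulin-driven activator SREBP1, was 59.2, 96, 59.5 and 43.9 CPM in fed KO, 28.4, 31.3, 25.4 and 22.3 CPM in fasted WT and 109, 77, 105 and 93.1 CPM in fed WT. Fed KO was lower than fed WT at -0.57 ± 0.20 (adjusted p = 0.0395), a call lost with library totals (-0.35, adjusted p = 0.171), and higher than the fast at 1.27 ± 0.20 (adjusted p = 1.36e-04). The desaturase gene Fads1 and the transketolase gene Tkt gave 1.26 ± 0.10 and 1.11 ± 0.063.

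Sterol synthesis genes were almost all higher in fed KO than in the fast. Of 25 genes, 23 were higher and 1 lower in fed KO, with a median of 1.83. In the reference comparisons fed KO had 1 higher and 2 lower than fed WT, and fasted WT had 0 and 23. Fdps, the farnesyl diphosphate synthase, was 17.6, 20.1, 18 and 18.2 CPM in fed KO, 1.06, 1.61, 1.43 and 0.31 CPM in fasted WT and 19.7, 17.5, 16 and 14.8 CPM in fed WT. Its direct difference was 4.05 ± 0.23 (adjusted p = 3.28e-10). The sterol dehydrogenase gene Nsdhl gave 3.02 ± 0.18, the phosphomevalonate kinase gene Pmvk 1.91 ± 0.13 and the desaturase gene Sc5d 1.5 ± 0.10. Hsd17b7, a later enzyme of the pathway, was the member called lower, at -0.52 ± 0.12, a call lost with library totals (adjusted p = 0.0701). It was named after its values were seen.

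Genes of glucose uptake and glycolysis were called in both directions. Of 20 genes, 8 were higher and 3 lower in fed KO, and 12 and 2 with library totals, and the called share of 55.0% was near that of all genes. Pklr, the liver pyruvate kinase, was 300.3, 329, 325 and 273 CPM in fed KO and 39.6, 60.2, 49.6 and 41.9 CPM in fasted WT. The fed KO libraries overlapped the fed WT libraries, at 355, 292, 268 and 290.1 CPM, and the difference was 2.68 ± 0.14 (adjusted p = 3.28e-10). Mlxipl, which encodes the glucose-sensing factor ChREBP, gave 1.97 ± 0.11. The regulatory protein gene Gckr gave 0.75 ± 0.067 and the glycogen phosphorylase gene Pygl 1.27 ± 0.067. Pfkfb3, which makes a glycolytic activator, was below fed WT in both groups, at -1.5 ± 0.31 in fed KO and -1.58 ± 0.31 in the fast.

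Lipid droplet genes were mostly lower in fed KO than in the fast. Of 23 genes, 14 were lower and 5 higher in fed KO (82.6% called, beside 48.9% of all genes). With library totals these were 12 and 7. The number higher was 2 without the pancreas-marked libraries and 3 without fed KO replicate 2, fasted WT replicate 2 or fasted WT replicate 4. Cidec, a droplet protein that fuses droplets into larger ones, was 0.734, 0.881, 1.11 and 0.873 CPM in fed KO and 0.812, 1.2, 0.556 and 0.883 CPM in fed WT. In fasted WT it was 35.7, 64.3, 67.3 and 54.2 CPM, which gave a direct difference of -5.93 ± 0.26 (adjusted p = 2.62e-10). No fed library of either genotype came near the fasted ones. Mgll, the monoglyceride lipase, gave -1.81 ± 0.11 and the acyl-CoA synthetase gene Acsl1 -1.5 ± 0.10, both with fed KO uncalled against fed WT (-0.24 ± 0.11 and -0.06 ± 0.10). Autophagy and lysosome genes were mixed, with 7 higher and 10 lower of 26, beside 24.8% and 24.1% of all genes. With library totals these were 11 and 6. Bnip3, a mitophagy receptor, gave -1.72 ± 0.15, the lipid transfer gene Atg2a -0.73 ± 0.06, the starting kinase Ulk1 0.97 ± 0.12 and the cathepsin gene Ctsl 1.07 ± 0.11.

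Amino acid breakdown and the urea cycle had 22 genes lower and 7 higher in fed KO, of 40 (72.5% called, beside 48.9% of all genes). With library totals these were 19 and 11. Cps1, which starts the urea cycle, was 3463, 3546, 3280.2 and 3356 CPM in fed KO and 7876, 8096, 9215 and 6789 CPM in fasted WT, and Arg1, arginase, which ends it, was 525, 655, 486 and 699 and 2175, 1981, 2042 and 1692 CPM. Neither gene overlapped between the groups. Both were also below fed WT in fed KO, at -0.66 ± 0.11 and -1.06 ± 0.15, and above it in the fast, at 0.57 ± 0.11 and 0.67 ± 0.15. The direct differences were -1.23 ± 0.11 and -1.74 ± 0.15. Tdo2, the tryptophan dioxygenase, had the same order, with a difference of -1.47 ± 0.11. Aass, of lysine breakdown, gave -1.66 ± 0.10 and Oat, ornithine aminotransferase, -1.27 ± 0.10. In the methionine cycle Mat1a, which makes the methyl donor S-adenosylmethionine, was called above fed WT in both groups, at 0.66 ± 0.089 in fed KO and 2.40 ± 0.094 in the fast, with a direct difference of -1.74 ± 0.091. Ahcy, which clears its product, gave -0.41 ± 0.09 in fed KO and 1.01 ± 0.091 in the fast against fed WT and differed by -1.41 ± 0.092. The fed KO call of Ahcy against fed WT was lost with library totals (-0.18, adjusted p = 0.103). Serine and one-carbon enzymes had 7 higher and 8 lower of 22 (68.2% called, beside 48.9% of all genes). With library totals these were 12 and 5, and 5 were lower without the pancreas-marked libraries.

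Genes of the ATF4 pathway were mostly higher in fed KO than in the fast. Of 38 genes, 26 were higher and 2 lower in fed KO than in fasted WT, with a median of 1.08. The list's genes against fed WT were 26 higher and 3 lower in fed KO, and 6 and 9 in fasted WT. Psat1, an aminotransferase of serine synthesis, was 16.2, 17.7, 14.8 and 14.8 CPM in fed KO. It was 0.743, 1.18, 0.893 and 0.517 CPM in fasted WT and 1.01, 0.76, 0.325 and 0.49 CPM in fed WT, so the fast overlapped the fed reference. The direct difference was 4.24 ± 0.24 (adjusted p = 5.14e-10). Mthfd2, a mitochondrial folate enzyme, was 4.36, 6.74, 3.92 and 5.63 CPM in fed KO and 0.743, 0.431, 0.536 and 1.03 CPM in fasted WT, and here the fast lay below fed WT (-1.71 ± 0.27), for a direct difference of 2.91 ± 0.25. The amino acid transporter subunit gene Slc3a2 and the seryl-tRNA synthetase gene Sars gave 1.78 ± 0.11 and 1.06 ± 0.09. Trib3, a pseudokinase that dampens insulin signalling, was 49.9, 89.7, 56.2 and 38.8 CPM in fed KO and 12.9, 11.6, 12.6 and 6.72 CPM in fasted WT, a difference of 2.42 ± 0.38. The members called lower, Cth of cysteine synthesis and the alanine aminotransferase gene Gpt2, named after their values were seen, gave -0.72 ± 0.16 and -0.61 ± 0.12.

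Fgf21, the hormone gene that both programmes can reach, was above fed WT in both groups. It was 13.5, 46.5, 35.8 and 46.9 CPM in fed KO, 7.59, 11.9, 14.7 and 11.7 CPM in fasted WT and 3.2, 1.72, 3.06 and 3.73 CPM in fed WT. The 2 raised groups overlapped, and the direct difference was 1.63 ± 0.36 (adjusted p = 0.00234), with 3.62 ± 0.41 in fed KO and 1.99 ± 0.43 in the fast against fed WT. Gdf15, a stress hormone gene that also stands among the p53 targets, was 12.3, 38.2, 25.3 and 33.5 CPM in fed KO and 8.81, 2.96, 4.02 and 4.7 CPM in fasted WT. Both overlapped the fed WT libraries, at 12.7, 7.28, 11.3 and 12.1 CPM. Against fed WT the fast was called lower at -1.08 ± 0.38 (adjusted p = 0.0436) and fed KO higher at 1.34 ± 0.35 (adjusted p = 0.0118), and the direct difference was 2.42 ± 0.38. Hepatokines as a list were mixed, with 11 higher and 8 lower of 26 (73.1% called, beside 48.9% of all genes). Angptl6, of the angiopoietin-like family, gave 1.63 ± 0.17, the fetuin gene Ahsg 0.90 ± 0.081 and the neutrophil attractant gene Lect2 1.01 ± 0.12.

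The promoters of the 7 pathway genes that the naming rule picks and that were called higher (Slc3a2, Psat1, Sars, Mthfd2, Gdf15, Trib3 and Fgf21) were searched on both strands for TGATGNAA, the letters at the core of the element that ATF4 binds with C/EBP partners. All had an entry in the RefSeq table, and 2 held a match, against 3.97% of all 32851 promoters. They are printed because they show where the letters stand in the hormone gene shared with the fast and in Trib3, 5′ to 3′ along the gene, with the match in capitals; both lie on the opposite strand, so the capitals read as the reverse complement. The Fgf21 window is chr7:45615441-45615740 and the Trib3 window chr2:152344011-152344310, both minus strand of GRCm38.p6. The Fgf21 match begins 139 bases before the start, and that of Trib3 14 bases after it. A match is a description of letters, not a shown site.
Fgf21: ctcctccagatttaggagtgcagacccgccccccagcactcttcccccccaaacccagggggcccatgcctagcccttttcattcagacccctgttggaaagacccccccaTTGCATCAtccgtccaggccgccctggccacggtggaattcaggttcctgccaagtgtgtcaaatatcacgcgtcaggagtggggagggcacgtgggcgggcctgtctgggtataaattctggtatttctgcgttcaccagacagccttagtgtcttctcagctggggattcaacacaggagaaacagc
Trib3: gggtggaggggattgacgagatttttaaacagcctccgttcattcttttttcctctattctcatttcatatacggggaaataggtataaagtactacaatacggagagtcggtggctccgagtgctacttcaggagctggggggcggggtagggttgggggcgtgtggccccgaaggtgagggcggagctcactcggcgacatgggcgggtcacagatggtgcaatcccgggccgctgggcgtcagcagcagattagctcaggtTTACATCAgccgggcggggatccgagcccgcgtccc

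**Figure D3:**
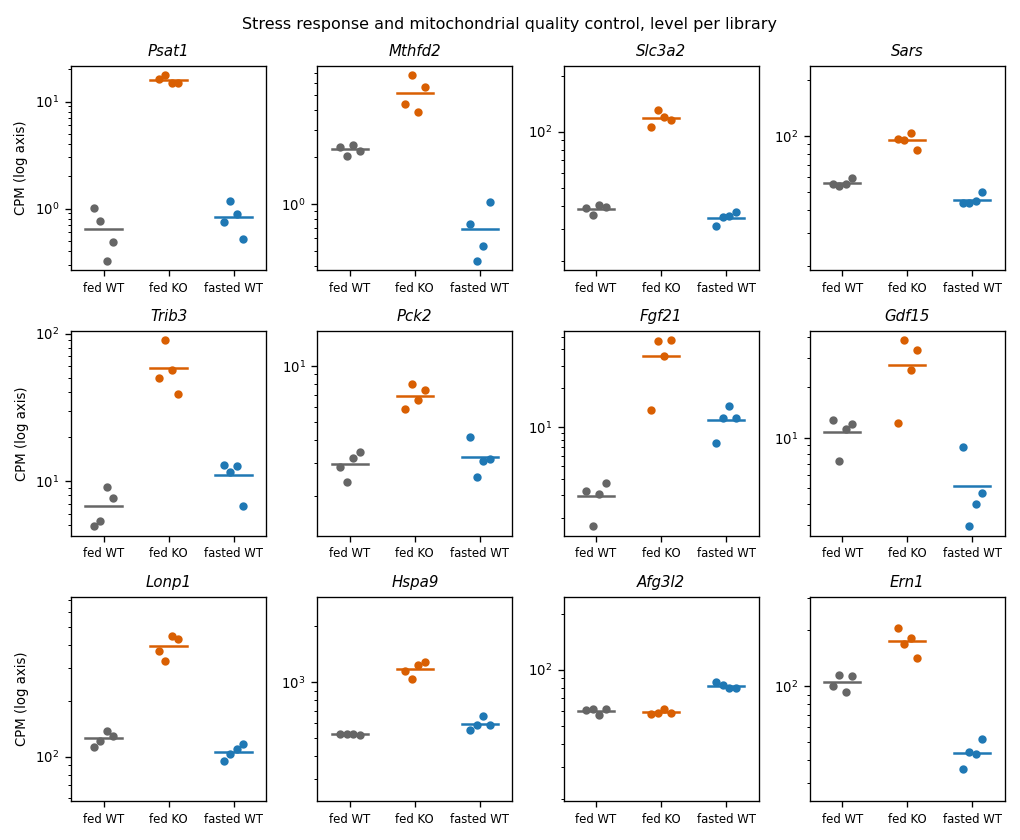
Levels in CPM on a log axis for 12 genes of the ATF4 pathway, mitochondrial quality control and stress hormones, 1 point per library and a bar at the mean of 4, in fed WT (grey), fed KO (orange) and fasted WT (blue). Psat1, Slc3a2, Lonp1 and Hspa9 have fed KO points above all others, and Fgf21 has fed KO and fasted WT points above fed WT.

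Chaperones and proteases of the mitochondrial matrix split by member. Of 19, 8 were higher and 6 lower in fed KO (73.7% called, beside 48.9% of all genes). With library totals these were 12 and 2. Lonp1, the main matrix protease, was 371, 326, 444 and 431 CPM in fed KO and 94.2, 103, 109.7 and 118 CPM in fasted WT, with fed WT at 113, 121, 138 and 129 CPM. All fed KO libraries lay above every library of the other 2 groups, and the difference was 1.89 ± 0.11 (adjusted p = 2.49e-10). The chaperone gene Hspa9 gave 0.98 ± 0.088. Afg3l2, an inner membrane protease, and Tspo, an outer membrane protein, were lower at -0.47 ± 0.055 and -1.02 ± 0.095.

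Folding genes of the endoplasmic reticulum were almost all higher in fed KO than in the fast. Of 27, 24 were higher and 0 lower in fed KO than in fasted WT, with 25 and 0 without the pancreas-marked libraries. Without fed KO replicate 2, 1 was called lower. Fed KO had 1 higher and 4 lower against fed WT. Sec61b, of the translocation channel, was 32.3, 38.3, 35.4 and 37 CPM in fed KO, 12.2, 14.6, 13.3 and 15 CPM in fasted WT and 36.5, 37.2, 33.3 and 35 CPM in fed WT, a direct difference of 1.38 ± 0.10. The disulfide isomerase genes Pdia6 and Pdia4 gave 1.14 ± 0.12 and 0.95 ± 0.11. Ern1, the stress sensor IRE1, gave 2.0 ± 0.18 and was called above fed WT in fed KO as well (0.73 ± 0.17). The acinar cells of the pancreas are rich in these transcripts, and their markers stood high in the pancreas-marked libraries. Their part in the result was not tested beyond the counts given without those libraries.

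Some genes stood at a like level in fed KO and fasted WT, away from fed WT. They were picked for differing from fed WT by at least 1 in both groups, in the same direction and past the test, with a 95% interval of the direct difference inside 1 either way. The 10 in each direction with the largest smaller difference from fed WT are given. Because fed WT is common to both selections, the list is a description. Adgrf1, an adhesion G protein-coupled receptor gene, was 4.85, 4.33, 6.53 and 5 CPM in fed KO, 6.95, 5.6, 4.2 and 7.03 CPM in fasted WT and 35.7, 40.4, 31.5 and 33.7 CPM in fed WT. Its direct difference was -0.19 ± 0.17, with an interval from -0.55 to 0.16. Lifr, the receptor for leukaemia inhibitory factor, was 247, 209.7, 186 and 225 CPM in fed KO, 209, 172, 179 and 212 CPM in fasted WT and 543, 653, 556 and 542 CPM in fed WT. Both groups lay under every fed WT library, with a direct difference of 0.17 ± 0.10 (interval -0.047 to 0.38). With library totals the Lifr difference passed, at 0.44 (adjusted p = 9.50e-04). Dpy19l3, a C-mannosyltransferase gene, gave -2.46 ± 0.17 in fed KO and -2.40 ± 0.17 in the fast against fed WT, and an interval of the direct difference from -0.44 to 0.32.

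The other genes low in both groups had varied roles. F11, coagulation factor XI, stood at means of 50.4 ± 8.15 and 54.2 ± 5.52 CPM against 144 ± 19.2 CPM in fed WT (SD, n = 4 each; direct interval -0.39 to 0.17). Sucnr1, the receptor for the tricarboxylic acid cycle metabolite succinate, stood at 15.1 ± 3.12 and 16.8 ± 1.33 against 45.9 ± 5.37 CPM (interval -0.45 to 0.14). Pfkfb3 stood at 10.1 ± 3.2 and 9.58 ± 3.81 against 28.5 ± 4.17 CPM (interval -0.61 to 0.76). Saa4, a constitutive serum amyloid, Bdh2, a cytosolic dehydrogenase, Col27a1, a fibrillar collagen, and Hes6, a transcriptional regulator, had intervals from -0.97 to 0.35, -0.26 to 0.43, -0.29 to 0.65 and -0.16 to 0.55. Hes6 passed with library totals, at 0.46 (adjusted p = 0.024).

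Genes raised in both groups included lipid enzymes. Gpat3, a glycerol-3-phosphate acyltransferase, was 14.1, 20.1, 19.2 and 19.1 CPM in fed KO, 11.8, 12.3, 13.1 and 11.4 CPM in fasted WT and 1.37, 1.48, 1.81 and 1.52 CPM in fed WT. The raised groups lay near each other, yet without overlap, and the direct difference of 0.58 ± 0.12 passed (adjusted p = 7.79e-04). Acot2 was 9.83, 11.8, 22.1 and 22 CPM in fed KO, 10.3, 17, 27.6 and 24.4 CPM in fasted WT and 2.03, 0.76, 1.85 and 1.81 CPM in fed WT, and Abcd2 had an interval of the direct difference from -0.53 to 0.61. Acot2 (interval -0.97 to 0.42) has close paralogs in a cluster, so its count holds reads unique to it. Slc22a3, an organic cation transporter, was 10.4, 12.1, 9.52 and 8.83 CPM in fed KO, 10.7, 11.2, 14.2 and 10.1 CPM in fasted WT and 3.15, 1.8, 2.09 and 2.79 CPM in fed WT, with a direct difference of -0.18 ± 0.17. Cyp39a1, an oxysterol hydroxylase, was higher in fed KO at 0.55 ± 0.17 (adjusted p = 0.0127), a call lost when only the 8 libraries were fitted (adjusted p = 0.0534). The adhesion gene Igsf11, the adenosine receptor gene Adora1, the phosphomannomutase gene Pmm1, the cell cycle kinase gene Wee1 and Ly6d, a surface protein of the fetal list, had intervals from -0.25 to 0.30, -0.34 to 0.43, -0.49 to 0.28, -0.73 to 0.29 and -0.69 to 0.59.

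**Figure D4:**
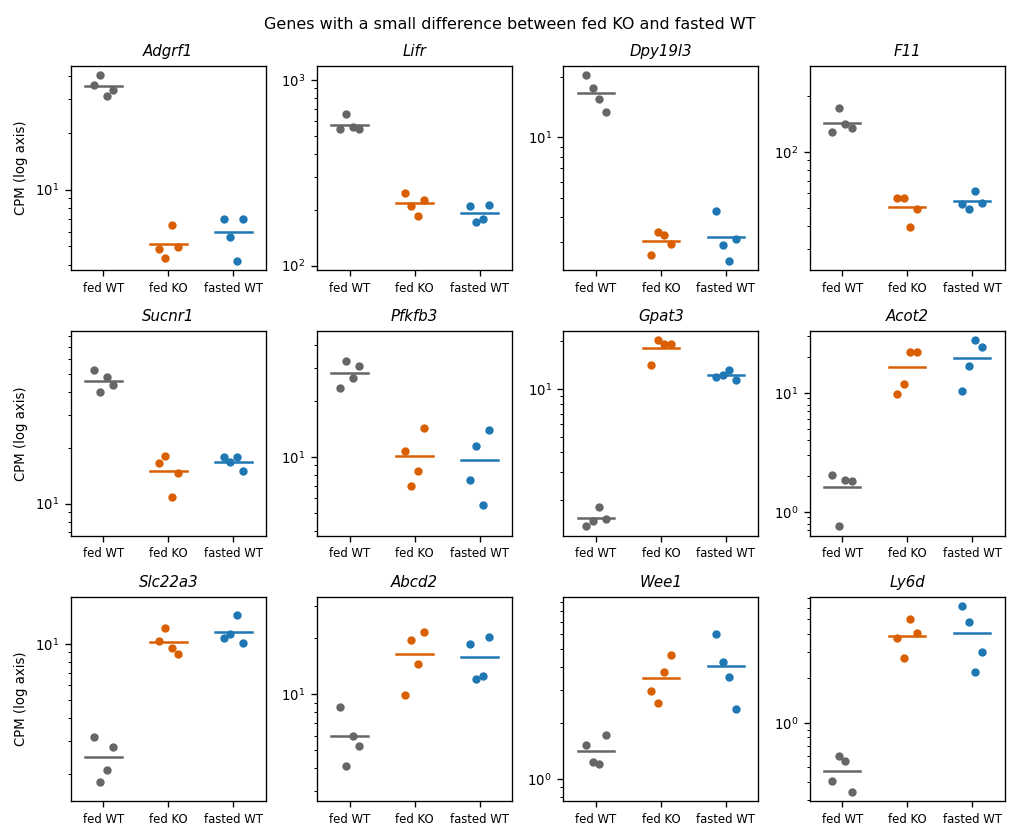
Levels in CPM on a log axis for 6 genes low and 6 genes high in both fed KO (orange) and fasted WT (blue) relative to fed WT (grey), 1 point per library and a bar at the mean of 4. Orange and blue points lie near each other in all 12 panels because the genes were picked for a small direct difference.

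A further set had means on opposite sides of fed WT, picked for at least 1 in size and past the test in both reference comparisons, and the 6 in each order with the largest smaller difference are given. Serpina7, thyroxine-binding globulin, was 401, 489, 624 and 601 CPM in fed KO, 3.45, 2.48, 5.09 and 2.12 CPM in fasted WT and 45.6, 48, 42.1 and 23.8 CPM in fed WT. The direct difference was 7.31 ± 0.32 (adjusted p = 9.20e-10). Serpina6, the corticosteroid-binding globulin, was 446, 524, 539.9 and 639, 88.6, 50.8, 50.5 and 60.7 and 198, 135, 179 and 162 CPM in the same order, a difference of 3.10 ± 0.19. Both plasma carriers of hormones were thus above the fed level in fed KO and below it in the fast. Gstm3, a glutathione transferase, was 109, 245, 313 and 320.2 CPM in fed KO and 4.83, 3.07, 3.88 and 6.61 CPM in fasted WT, with 5.75 ± 0.40. The dehydrogenase gene Dhrs9, the growth inhibitor gene Osgin1 and Mroh6 gave 3.57 ± 0.29, 2.96 ± 0.37 and 2.66 ± 0.34.

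On the other side, low in fed KO and high in the fast, stood Cyp8b1, the enzyme that sets the share of cholic acid in bile. It was 147, 223, 163 and 129 CPM in fed KO, 1148, 1257, 1408 and 889 CPM in fasted WT and 320.1, 273, 398 and 521 CPM in fed WT. Its direct difference was -2.83 ± 0.23 (adjusted p = 2.18e-07). Gpcpd1, a glycerophosphocholine phosphodiesterase, was 76.2, 48.5, 37.9 and 46.3 CPM in fed KO and 472, 376, 365 and 239.6 CPM in fasted WT, a difference of -2.80 ± 0.24. The imprinted zinc finger gene Peg3, named from the fetal list, had the same order, at 3.83, 3.98, 3.76 and 4.27 CPM in fed KO, 33.8, 34.3, 44.4 and 31.2 CPM in fasted WT and 7.05, 5.84, 8.9 and 10.5 CPM in fed WT. No library of one group reached another group in Peg3, and the direct difference was -3.18 ± 0.17. The antisense transcript Ctcflos, the small GTPase regulator gene Agap2, the centriole gene Cntrl and Cpsf4l gave -2.98 ± 0.16, -2.90 ± 0.32, -2.22 ± 0.18 and -2.65 ± 0.22. The strand setting of the counting is not given, so reads of Ctcflos and an overlapping gene cannot be told apart.

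**Figure D5:**
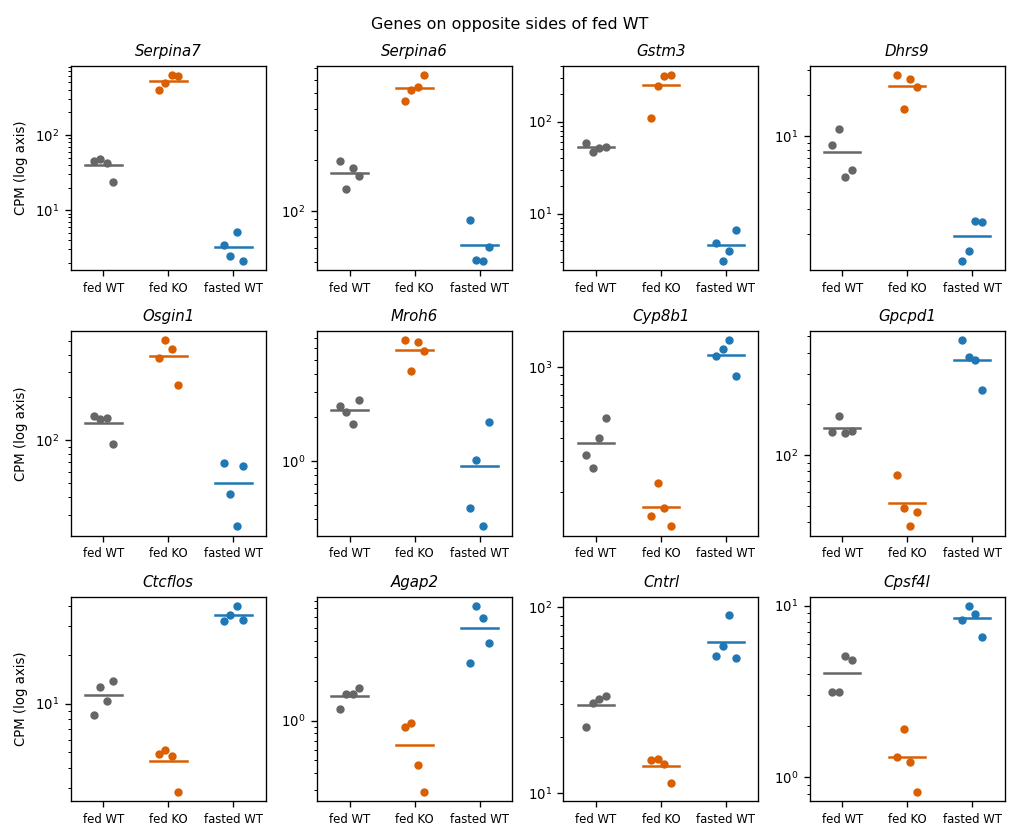
Levels in CPM on a log axis for 12 genes that lie on opposite sides of fed WT (grey): 6 with fed KO (orange) above and fasted WT (blue) below, and 6 with the reverse order; 1 point per library and a bar at the mean of 4. The genes were picked for this order, which is not itself a test.

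Bile acid genes as a list had 16 lower and 4 higher of 27 (74.1% called, beside 48.9% of all genes). With library totals these were 11 and 8. Those higher included Cyp2c70, which makes muricholic acids, at 2.37 ± 0.22, the canalicular export pump gene Abcb11 at 1.15 ± 0.11 and the basolateral exporter gene Abcc4 at 2.55 ± 0.26. Cyp2c70 was below fed WT in both groups, at -0.94 ± 0.21 in fed KO and -3.31 ± 0.23 in the fast. Of 19 apolipoprotein and lipoprotein genes, 11 were lower and 1 higher, and 8 and 4 with library totals. Apoa1, the main protein of high-density lipoprotein, was 4245, 4936, 3680.4 and 4288 CPM in fed KO and 10744, 11767, 11542 and 11244 CPM in fasted WT, a difference of -1.40 ± 0.10 (adjusted p = 2.50e-09). Fed KO was below fed WT at -1.07 ± 0.10 and the fast above it at 0.33 ± 0.10. Apoa5, a plasma triglyceride regulator, Apon, and Mttp, which loads lipid on apolipoprotein B, gave -1.27 ± 0.11, -1.08 ± 0.10 and -0.70 ± 0.072. Apobec1, the editing enzyme of apolipoprotein B transcripts and the member called higher, gave 1.08 ± 0.14 and was named after its values were seen.

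Plasma proteins of the acute phase were lower in fed KO: 16 of 28, with 2 higher, and 12 and 6 with library totals. Without fasted WT replicate 1 the number higher was 4. Hp, haptoglobin, was 1485, 1415, 961 and 957 CPM in fed KO and 7414, 6187, 3060.1 and 3541 CPM in fasted WT, a difference of -2.07 ± 0.29. Serpina3k, an antiprotease, and Lbp, which binds bacterial lipopolysaccharide, gave -1.33 ± 0.14 and -1.66 ± 0.18. Apcs, serum amyloid P, went far the other way, at 860.2, 608, 726 and 818 CPM in fed KO and 204, 107, 57.1 and 46.6 CPM in fasted WT, with 2.86 ± 0.43 (adjusted p = 1.33e-04). Transthyretin, Ttr, the other member called higher and named after its values were seen, gave 0.46 ± 0.11. The list does not separate proteins that rise in the acute phase from those that fall in it. Of 32 interferon-stimulated genes, 10 were higher and 2 lower in fed KO, a called share of 37.5%, under the 48.9% of all genes. Against fed WT, 18 members of this list were lower in fed KO and 26 in the fast. With library totals the direct comparison had 15 higher and 0 lower. In it the number lower was 6 without fed KO replicate 2 and 1 without fasted WT replicate 3 or the pancreas-marked libraries. The antiviral gene Oas2, the chemokine gene Cxcl10, the tetherin gene Bst2 and the signalling gene Stat2 gave 1.58 ± 0.21, 1.54 ± 0.25, 0.93 ± 0.14 and 0.70 ± 0.10.

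Male-biased genes of mouse liver were mostly lower in fed KO. Of 30 male-biased genes, 23 were lower and 2 higher in fed KO, with a median of -1.29. The number higher was 1 without fed KO replicate 1 or fasted WT replicate 3, and with library totals 4 were higher and 19 lower. Against fed WT, 29 were lower in fed KO and 16 in the fast. Mup21, a major urinary protein gene, was 77.1, 75.9, 55.7 and 67 CPM in fed KO, 438, 331, 410.0 and 246 CPM in fasted WT and 621, 785, 779 and 623 CPM in fed WT, a direct difference of -2.37 ± 0.25. Both groups lay under the fed WT libraries in Mup21, and fed KO lay lowest. The share of gene reads from 21 Mup genes was 0.742 ± 0.306% in fed KO, 2.39 ± 0.33% in fasted WT and 2.93 ± 0.215% in fed WT (SD, n = 4 each). Exact two-sided permutation of fed KO and fasted WT libraries gave p = 0.0286, the least possible with 4 in each group. After adjustment over 14 library measures the permutation p was 0.05. Mup genes are near-identical, and reads that align to several places are left out of the counts. Mup12, Mup1, Mup7 and Mup3 gave -3.94 ± 0.38, -3.89 ± 0.46, -3.24 ± 0.61 and -1.59 ± 0.15, and the hydroxylase gene Cyp4a12b -2.65 ± 0.26. The members called higher, named after their values were seen, were Hsd3b5, a steroid dehydrogenase, at 1.52 ± 0.50 and Nudt7, a peroxisomal hydrolase, at 1.10 ± 0.15. The Hsd3b5 call (adjusted p = 0.0241) did not pass without fed KO replicate 1 or 2 (adjusted p = 0.0781 and 0.0794), without fasted WT replicate 2 or 3 (adjusted p = 0.0654 and 0.0511), with only the 8 libraries (adjusted p = 0.119) and without the pancreas-marked libraries (adjusted p = 0.148).

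Female-biased genes were split between the groups: 11 were higher and 10 lower of 26. Both groups had raised members against fed WT, 19 in fed KO and 12 in the fast. Of the 11 higher in fed KO, 7 were cytochrome P450 genes. Cyp2b9 had 7952 counts over the 4 fed KO libraries and 13 over the 4 fasted WT libraries, at 49.8, 79.7, 90.8 and 111 CPM in fed KO, and a difference of 8.93 ± 0.65 (adjusted p = 2.54e-07). Cyp2a4 and Cyp3a44 had 5238 and 3756 counts in fed KO and 18 and 9 in fasted WT, and Cyp2a22 gave 5.03 ± 0.43. Few reads of these genes were counted in either WT group. Over the 4 fed WT libraries Cyp2b9, Cyp2a4, Cyp3a44 and Cyp2a22 had 14, 7, 4 and 35 counts, and Cyp2a22 had 124 in fasted WT. Members of the list that are also PPAR-alpha targets, Cyp4a10 and Vnn1, lay on the other side, as given above.

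In the growth hormone axis, which maintains those sex differences through STAT5, 5 genes were higher and 2 lower of 14, with 8 higher with library totals, 3 higher without the pancreas-marked libraries and 1 lower without fasted WT replicate 1. With 7 of 14 called, the share was close to the 48.9% of all genes. Stat5b and Stat5a were 99.6, 99.2, 105 and 82.1 and 18.6, 22.7, 23.6 and 19.8 CPM in fed KO. In fasted WT they were 50.9, 53.5, 57.2 and 54.8 and 9.92, 10.5, 12 and 10.03 CPM. The groups did not overlap, and the differences were 0.84 ± 0.089 and 1.0 ± 0.10. The growth factor gene Igf1 was lower in fed KO at -0.55 ± 0.10, with the fast uncalled against fed WT (0.031 ± 0.10), and its carrier Igfbp3 higher at 0.72 ± 0.14.

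Of 26 drug-metabolising genes, 11 were higher and 8 lower in fed KO (73.1% called, beside 48.9% of all genes). With library totals these were 13 and 6. Cyp2c55 and Cyp1a2, monooxygenases, gave 4.11 ± 0.33 and 1.26 ± 0.13, with the fast below fed WT in both (-3.29 ± 0.33 and -1.30 ± 0.13). Akr1b7, an aldose reductase, gave 3.40 ± 0.34 and the retinal dehydrogenase gene Aldh1a1 0.83 ± 0.082. Targets of the antioxidant factor NRF2 and glutathione genes were 11 higher and 4 lower among 23 (65.2% called, beside 48.9% of all genes). With library totals these were 15 and 3. Nfe2l2, which encodes NRF2, was 113, 111, 130.4 and 138 CPM in fed KO and 62.1, 59.3, 54.2 and 72.9 CPM in fasted WT, a difference of 0.99 ± 0.10. Gsta3, a glutathione transferase, was uncalled against fed WT in fed KO (0.0074 ± 0.15) and lower in the fast (-1.55 ± 0.15), a direct difference of 1.56 ± 0.15.

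Clock genes were called in both directions. Of 24, 11 were lower and 7 higher in fed KO (75% called, beside 48.9% of all genes). Ciart and Dbp, outputs that peak together in the daily cycle, gave -3.89 ± 0.78 and -3.28 ± 0.64, and the related factor gene Hlf -1.09 ± 0.16. Dbp was 4.85, 0.843, 1.04 and 1.89 CPM in fed KO, 36.6, 25.9, 8.08 and 13 CPM in fasted WT and 6.6, 2.52, 5.66 and 5.2 CPM in fed WT. The fasted libraries were widely spread among themselves but overlapped neither fed group. Npas2, an activator of the opposite phase, was 10.4, 17.6, 13.8 and 10.3 CPM in fed KO and 1.43, 1.72, 2.77 and 1.86 CPM in fasted WT, a difference of 2.73 ± 0.33. The repressor gene Cry1 gave 1.06 ± 0.13 and the NAD synthesis gene Nampt -0.64 ± 0.10. The time of day at which each group was sampled is not stated in the sources used here, and its part in these values was not tested.

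Nuclear genes of the respiratory complexes had 33 lower and 5 higher of 77, a called share of 49.4% that is close to the 48.9% of all genes. The direction rested on the scaling, with 5 lower and 34 higher with library totals, and 19 were lower without the pancreas-marked libraries. Ndufa5 and Ndufb3 of complex I gave -0.63 ± 0.069 and -0.48 ± 0.067, Sdhd of complex II -0.59 ± 0.068 and Atpif1, an inhibitor of the ATP synthase, 0.80 ± 0.13. Protein genes of the mitochondrial genome had 5 lower and 0 higher of the 7 tested of 13. The others of the 13 had too few counted reads for a test. The share of gene reads counted for the 13 was 6.35 ± 0.25% in fed KO and 7.97 ± 0.67% in fasted WT (SD, n = 4 each). The exact permutation p of this share was 0.0286 (adjusted p = 0.05). Reads aligned to several places, 32% to 39.3% in fed KO and 40.4% to 45.7% in fasted WT, are not in it. Their part in the share was not tested. Among the tested members mt-Nd5, mt-Nd2, mt-Cytb and mt-Nd4 gave -1.15 ± 0.11, -0.80 ± 0.084, -0.75 ± 0.084 and -0.67 ± 0.084.

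Of 33 tricarboxylic acid cycle and pyruvate genes, 12 were lower and 6 higher in fed KO, but 9 and 18 with library totals. The called share of 54.5% was near the 48.9% of all genes. The succinyltransferase gene Dlst gave -0.85 ± 0.067. Other mitochondrial carriers, the family of the deleted gene, had 17 lower and 10 higher of 41 (65.9% called, beside 48.9% of all genes). With library totals these were 13 and 15. Slc25a20, which carries acylcarnitine for oxidation, was 82.4, 93.3, 99.6 and 114 CPM in fed KO, 220.4, 229.8, 220.0 and 220.3 CPM in fasted WT and 83.3, 82.6, 103 and 102 CPM in fed WT, a difference of -1.19 ± 0.10. The aspartate-glutamate carriers Slc25a12 and Slc25a13 gave -1.01 ± 0.075 and -0.79 ± 0.079. Slc25a44, a carrier of branched-chain amino acids, was higher at 1.05 ± 0.07.

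Matrix and stellate cell genes were higher in fed KO. Of 43 extracellular matrix genes, 29 were higher and 3 lower, and of 17 markers of hepatic stellate cells, the main matrix producers of liver, 12 and 0. Among these, 1 stellate marker was called lower without fed KO replicate 4. Col4a1 and Col4a2, the basement membrane chains, were 135, 99.8, 109 and 129 and 72.9, 56.3, 60.2 and 74.1 CPM in fed KO. In fasted WT they were 30.7, 36.7, 35.6 and 34.6 and 19.6, 24.9, 22.4 and 24.1 CPM. Neither chain overlapped between groups, and the differences were 1.78 ± 0.12 and 1.53 ± 0.13. Col6a3 of microfibrils and the matricellular gene Sparc gave 1.47 ± 0.11 and 0.89 ± 0.10. The stellate receptor gene Pdgfrb gave 0.91 ± 0.10, and the stellate-enriched genes Reln and Colec10 0.49 ± 0.078 and 0.50 ± 0.08. In bulk liver, more cells of a type and more RNA per cell cannot be told apart. The stellate marker sum was 703, 731, 757 and 791 CPM in fed KO and 571, 576, 564 and 528 CPM in fasted WT (exact permutation p = 0.0286, adjusted p = 0.05).

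Proliferation genes were higher in fed KO, 33 of 42 with 1 lower, and a median of 1.69. The member called lower, the replication gene Mcm10, named after its values were seen, at -0.34 ± 0.13, was not called when any 1 of fed KO replicates 2, 3 and 4 or fasted WT replicates 2 and 3 was left out, nor with only the 8 libraries (adjusted p = 0.0846), without the filter on low counts (adjusted p = 0.0947), without the pancreas-marked libraries (adjusted p = 0.0753) or with library totals (-0.071, adjusted p = 0.671). Ect2, needed for cell division, was 4.32, 5.09, 9.37 and 9.61 CPM in fed KO, 1.11, 0.915, 1.16 and 0.93 CPM in fasted WT and 2.13, 1.96, 1.34 and 1.23 CPM in fed WT, a direct difference of 2.77 ± 0.27. The mitotic kinase gene Aurka, the nucleotide gene Rrm2 and the replication gene Mcm6 gave 3.47 ± 0.45, 1.60 ± 0.22 and 1.22 ± 0.18. Against fed WT the list had 24 higher in fed KO and 14 lower in the fast, and in the library sums fed KO stood at 253 ± 38 CPM, fasted WT at 152 ± 5.31 CPM and fed WT at 228 ± 5.28 CPM (SD, n = 4 each). These sums lean on Mcm10, the member with the most counts in each group: 4478 in fed KO, 4649 in fasted WT and 8723 in fed WT. Of 19 fetal liver genes, 9 were higher and 1 lower in fed KO, a called share of 52.6%, near the 48.9% of all genes. The RNA-binding protein gene Igf2bp3, the imprinted RNA gene Rian and the transcription factor gene Sox4 gave 5.04 ± 0.38, 2.5 ± 0.37 and 1.99 ± 0.24. Of 21 targets of p53, 8 were higher and 0 lower in fed KO, and 5 higher without the pancreas-marked libraries but 14 with library totals. The called share of the p53 list was 38.1%, under the 48.9% of all genes. Bax, of apoptosis, Zmat3 and the cyclin gene Ccng1 gave 1.03 ± 0.12, 1.01 ± 0.16 and 0.64 ± 0.11.

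Endothelial markers had 9 higher and 4 lower of 20 (65% called, beside 48.9% of all genes), but 14 and 0 with library totals. The number lower was 1 without the pancreas-marked libraries and 2 when replicate 3 or 4 of fed KO or replicate 1 of fasted WT was left out. Gpr182, a sinusoidal receptor gene, and the junction gene Cdh5 gave 0.63 ± 0.078 and 0.48 ± 0.079. Macrophage markers had 6 higher and 0 lower of 23, a called share of 26.1%, under the 48.9% of all genes, and 14 and 0 with library totals. Counts of macrophage markers called higher were 3 without fasted WT replicate 2, without fasted WT replicate 3 or without both pancreas-marked libraries, and 10 without fasted WT replicate 1. In that list 1 marker was called lower without fed KO replicate 3 or fasted WT replicate 4. The tetraspanin gene Cd9 and the lysosomal gene Cd68 gave 1.28 ± 0.11 and 0.75 ± 0.15. Of lymphocyte and neutrophil markers, 0 of 14 were called by edgeR, with 0 at an unadjusted p under 0.05 and 0 called by DESeq2. Without fasted WT replicate 4 the count was 1, and with library totals 2. Bile duct markers had 1 called of 11, Spp1, which macrophages also express, at 0.52 ± 0.13. The count was 2 without fed KO replicate 1 or 3 or fasted WT replicate 2 or 4, and 3 without fasted WT replicate 1 or with library totals. Hepatocyte genes of the periportal zone had 18 lower and 1 higher of 26, with 2 higher without fed KO replicate 1 or fasted WT replicate 1. Those of the pericentral zone had 7 and 11 of 29. With library totals these were 14 and 3, and 4 and 17. Hsd17b13 of the first zone and Cyp2e1 of the second were both lower, at -1.06 ± 0.089 and -0.94 ± 0.10. The hepatocyte marker list had 9 lower and 4 higher of 30, but 6 and 10 with library totals. Its called share of 43.3% was near the 48.9% of all genes. Red blood cell transcripts had 1 lower and 0 higher of 6, with 3 lower without fed KO replicate 1 and 1 higher with library totals. Fat cell markers had 2 higher and 3 lower of 6, and 3 and 2 with library totals; liver itself expresses several, Cidec among them.

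Of the single genes with the largest differences, several stood outside the lists. Vmn2r3, a vomeronasal receptor gene, had 15153 counts over the 4 fed KO libraries and 5 over the 4 fasted WT libraries. Its level was 180.2, 122, 161 and 162 CPM in fed KO, and the 4 fed WT libraries held 2 counts. Tenm4, a teneurin adhesion gene, was 21.2, 7.35, 20.04 and 14.1 CPM in fed KO with 10 counts in all of fasted WT, and the transcription factor gene Tcf24 and the node of Ranvier gene Gldn gave 5.61 ± 0.47 and 4.86 ± 0.35. Chrna4, a nicotinic receptor subunit gene, was low in the fast instead. It was 10.1, 19.2, 7.6 and 14.6 CPM in fed KO and 44.4, 29.5, 11.6 and 15.4 CPM in fed WT, but had 10 counts over the 4 fasted libraries, a direct difference of 6.61 ± 0.70 (adjusted p = 5.21e-06). Capn8, a calpain gene, was 0.286, 0.498, 0.115 and 0.0485 CPM in fed KO and 3.98, 5.11, 4.64 and 4.29 CPM in fasted WT, with the fast uncalled against fed WT (0.059 ± 0.27) and a difference of -4.17 ± 0.39. Moxd1, a monooxygenase-like gene of the male-biased list, had 55.5, 39.9, 3.8 and 4.91 CPM in the 4 fasted WT libraries. Moxd1 and the acute phase gene Orm3 gave -4.81 ± 1.16 and -3.65 ± 0.77. Rad51b, a DNA repair gene, was 0.286, 0.46, 0.576 and 0.631 CPM in fed KO, 4.56, 3.55, 5.36 and 4.75 CPM in fasted WT and 0.304, 0.24, 0.464 and 0.294 CPM in fed WT, with fed KO overlapping fed WT and a difference of -3.22 ± 0.28.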

How the data were processed

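Liver RNA was sequenced from 500 ng of total RNA per library with a stranded mRNA kit, per the labels' protocols. The authors deposited 1 table of raw counts per gene for 16 libraries. The submitters' processing notes name cutadapt 1.8, STAR 2.5.3a, HTSeq 0.9.1 and the build GRCm38; no settings, strand option or release of the annotation are stated in the sources used here. The 5 summary lines that name no gene were left out of library sizes and tests. Reads aligned to several places made up 32.0% to 45.8% of the lines' reads and the table's counts together, reads outside genes 2.98% to 3.78% and ambiguous reads 1.05% to 1.65%. The share aligned to several places was 32.0% to 39.3% in fed KO, 40.4% to 45.7% in fasted WT and 41.5% to 45.8% in fed WT. Its part in the results was not tested. Gene symbols came from the GENCODE annotation of GRCm38.

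Counts were filtered with filterByExpr, scaled by TMM and fitted with edgeR 4.0.16 (R 4.3.3) quasi-likelihood, robust, in 1 model with a coefficient for each of the 4 groups, so that all 16 libraries share the estimate of spread. The threshold was an adjusted p of 0.05 (Benjamini-Hochberg over all genes tested). CPM values use TMM library sizes. Library sums were compared by exact two-sided permutation. Members, gene lists and naming rules were chosen with earlier results of these data known. Named genes were Slc25a47, the 12 largest rises and 12 largest falls without overlap between the groups, up to 4 called members per list by p, a fixed set of well-known genes, and the genes alike or opposite around fed WT; a few list members were named after their values were seen, as the text says. Predicted genes, clones and pseudogenes were left out of the naming, and some genes that the rule picks are not reported here. Alternatives were DESeq2 1.42.0 (size factors, Wald test), library totals, no filter, no robust estimation, a stricter threshold, the 8 libraries alone, the replicate number as a block, and each library left out in turn. The test was tested on simulated data with known changes. Replicate libraries of a group differed beyond sampling noise, so none was counted as a repeat. The 4 fasted knockout libraries entered only the shared estimate of spread.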

Additional observations from a re-analysis of the deposited data

Results flagged for a closer look

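Within the groups of 4, 24 of 648 sets of values held 1 library far from the other 3, where chance alone gives about 1 in 20, or 32.4 sets. In fed KO these were Bnip3 in replicate 4 (116 CPM against 70.4 to 76.2), Mcm10 in replicate 1 (62.3 CPM against 39.6 to 41.7) and Sdhd in replicate 4 (156 CPM against 142 to 144). Also in fed KO these were Stat2 in replicate 3 (75.5 CPM against 82.7 to 83), Tdo2 in replicate 3 (866 CPM against 1080 to 1110) and the summed level of lymphocyte and neutrophil markers in replicate 1 (39.2 CPM against 22.7 to 24). In fasted WT these were Ahcy in replicate 1 (760 CPM against 710 to 716), Ndufb3 in replicate 4 (29.7 CPM against 31.3 to 31.4) and Orm3 in replicate 1 (13 CPM against 2.37 to 4.14). Also in fasted WT these were Sdsl in replicate 1 (18.2 CPM against 25.5 to 27), Slc25a20 in replicate 2 (230 CPM against 220) and the summed level of the proliferation list in replicate 4 (144 CPM against 154 to 155). In fed WT these were Acot2 in replicate 2 (0.76 CPM against 1.81 to 2.03), Adora1 in replicate 3 (13.4 CPM against 7.84 to 8.78), Afg3l2 in replicate 3 (56.9 CPM against 60.9 to 61.4) and Apoa5 in replicate 1 (1330 CPM against 1480 to 1500). Also in fed WT these were Gpcpd1 in replicate 2 (169 CPM against 135 to 139), Hsd17b7 in replicate 3 (57.5 CPM against 64.9 to 66.1), Igsf11 in replicate 1 (19.8 CPM against 16.6 to 16.8) and Lbp in replicate 2 (226 CPM against 117 to 135). Also in fed WT these were Lifr in replicate 2 (653 CPM against 542 to 556), Mcm6 in replicate 1 (7.97 CPM against 4.41 to 4.64) and Osgin1 in replicate 4 (93.6 CPM against 140 to 149). Also in fed WT this was Vmn2r3 in replicate 2 (0.08 CPM against 0). No explanation was weighed for these values.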

How the results depend on the processing

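The counts of genes higher and lower in fed KO than in fasted WT stayed within 1.5 times of the 3442 and 3355 reported under every alternative run except library totals, which gave 6513 and 1665. The same scaling took fed KO against fed WT from 1948 and 2351 to 4886 and 915. Leaving out 1 library of fed KO or fasted WT at a time gave 3006 to 3320 higher and 3020 to 3340 lower for fed KO against fasted WT (3419 to 3515 and 3331 to 3427 for 1 library of fed WT), and 2976 and 3046 without fasted WT replicates 2 and 4. The labels do not say what a replicate number shares between groups. Same-numbered fed KO and fasted WT libraries had deviations correlated at 0.154, -0.1, -0.0567 and 0.0791. The best match was the own number in 2 of 4. For fasted WT and fed WT the correlations were 0.137, 0.0328, 0.0128 and 0.0934, and for fed KO and fed WT 0.0515, 0.008, -0.0166 and 0.0485. Summed macrophage markers were highest in replicate 1 of each group, at 969 CPM in fed WT, 946 CPM in fed KO and 897 CPM in fasted WT. What the number stands for was not tested. With the replicate number as a block the counts were 3476 and 3326, 180 of the 182 called genes named in the text kept their call (not Hsd3b5, adjusted p = 0.0649, and Mcm10, adjusted p = 0.0506, in edgeR), and Gdf15 in the fast against fed WT had an adjusted p of 0.073. Of 182 called genes named in the text, 182 kept their call with DESeq2, 178 with library totals and 177 without fasted WT replicates 2 and 4. No named gene changed direction under any of these alternatives where either value was called. The cause of the lost calls was not tested.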
